A study of Homo sapiens with 12 samples.

Results

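The vehicle baseline of the 2 cell lines was described from the 6 DMSO libraries of a series of 12. Of these 6, 3 were made from KYSE30 cells, which derive from a squamous carcinoma of the esophagus, and 3 from cultures labelled U138MG, a glioblastoma line of brain origin. All 6 cultures were wild type and received DMSO, the solvent, for 48 h. The remaining 6 libraries came from cultures of the same labels given 100 nM of PTDSS1i, a small-molecule inhibitor of phosphatidylserine synthase 1. Poly-A RNA was sequenced, and the authors deposited raw counts of reads per gene in 1 table per line. The labels place every KYSE30 library in batch1 and every U138MG library in batch2, and the tables were counted on gene lists of different length, so that cell line, batch and annotation cannot be told apart in any difference between them. One growth medium is named in the labels for both lines, whereas the methods of the study put U138MG in DMEM. Each line is a single culture line, and the 3 replicates describe repeat cultures of it.

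Phosphatidylserine is made in mammalian cells by a pair of base-exchange enzymes, PTDSS1 and PTDSS2. According to the study, PTDSS1 accepts phosphatidylcholine or phosphatidylethanolamine, and PTDSS2 only phosphatidylethanolamine. Part of the phosphatidylserine is decarboxylated in mitochondria to phosphatidylethanolamine, which the cell also makes from ethanolamine by the CDP-ethanolamine route. Sterol and fatty acid synthesis are driven by the transcription factors SREBP1 and SREBP2, which are held in the ER membrane while sterols are plentiful. The ER, in turn, reports lipid and protein-folding stress through PERK, IRE1 and ATF6, and NRF2 drives a separate program against oxidants. Squamous epithelial cells are recognised by their basal and suprabasal keratins, p63 and desmosomes, and glial tumour cells by vimentin, nestin and glial lineage factors.

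To compare the lines on one scale, the tables were joined on the Ensembl identifier without its version, which left 30358 genes. These hold between 99.922 and 99.927% of the counts of the KYSE30 libraries and between 98.615 and 98.677% of those of the libraries labelled U138MG. Total counts ranged from 18800932 to 22562358 in KYSE30 and from 19141002 to 22304205 in U138MG. Levels are given as normalized CPM, counts relative to the TMM-scaled library size. Where a pair of levels is joined by the word against, the KYSE30 value stands first, and a single value for a line is the mean of its libraries, with ± for the SD (n = 3). Where a line has 3 values, they are its replicates 1, 2 and 3. Differences are KYSE30 minus U138MG on the log2 scale, and a gene was called higher in one line when the quasi-likelihood test of edgeR gave a Benjamini-Hochberg adjusted p under 0.05 and its log2 difference lay beyond 1. Of 17404 genes tested, 4179 (24.0%) were called higher in KYSE30 and 4067 (23.4%) higher in U138MG, 47.4% in all. The KYSE30 table lists no gene that is at 0 in all of its 6 vehicle and PTDSS1i libraries. A gene without a count in any of these 6 could therefore not be compared or called higher in U138MG. One without a count in U138MG could be compared and called higher in KYSE30. The split between the lines and the list counts below carry this limit. The libraries of the lines did not overlap for 86.6% of the tested genes. The median of the absolute log2 difference was 0.93, and the first principal component over all 12 libraries of the study, the PTDSS1i ones included, separated the lines and held 86.2% of the variance of 18405 genes. Replicates had a biological coefficient of variation of 0.0569. A group in which a gene has no count is treated as holding at most 3 counts over its libraries, which is 0.0496 CPM in KYSE30 and 0.0477 CPM in U138MG, and these limits cover counting error only.

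To establish what the libraries contain, the lineage markers were read first. The libraries labelled U138MG held abundant squamous and simple epithelial transcripts. Among glial and neural markers, *GFAP*, *OLIG1*, *NES* and *AQP4* were at low levels or 0 in them, while some others were not. KYSE30 also held an epithelial profile, with different keratins. *VIM*, which encodes vimentin, had 5.16, 3.09 and 4.00 normalized CPM in the KYSE30 libraries and 0.156, 0.179 and 0.279 in the libraries labelled U138MG. Both lines were low, and KYSE30 was the higher of them (log2 difference 4.27, standard error 0.33, edgeR adjusted p = 5.58e-12). *NES*, encoding the intermediate filament nestin, had 0.258, 0.319 and 0.449 against 0.573, 0.673 and 0.419 CPM, and it did not reach the count needed for a test. *OLIG1*, an oligodendrocyte lineage factor, had no count in any of the 6 libraries. *PDGFRA*, *FABP7* and *SOX10* had at most 0.165 CPM on average in the libraries labelled U138MG. Other listed glial genes were counted there, *ALDH1L1* with 401, 456 and 467 raw counts and *SLC1A3* with 631, 676 and 736. So were the neuronal genes *MAP2*, with 409, 518 and 505 raw counts, and *SYT1*, with 407, 538 and 487. *GFAP*, the astrocyte intermediate filament, had 2.40, 2.51 and 2.14 CPM in the libraries labelled U138MG and no count in KYSE30, at least 47.4-fold higher in U138MG. *AQP4*, an astrocyte water channel, likewise had 1.98, 2.33 and 2.10 CPM against no count, at least 43.2-fold higher. Both were therefore present in U138MG at low levels, while the vimentin and nestin that glioma lines usually carry were near 0. Of the 28 glial and glioblastoma markers, 12 were tested, with 3 higher in KYSE30, 7 higher in U138MG and a median of -3.80, but over the 7 whose exons overlap no other gene the counts were 3 and 3 and the median was 0.86. *GJA1*, a gap junction protein of astrocytes and of many epithelia, was higher in U138MG, at 20.7 ± 4.26 against 176 ± 8.95 CPM (log2 difference -3.09, standard error 0.13, edgeR adjusted p = 1.3e-07). *SOX9* (74.7 against 6.35 CPM) and *SOX2* (101 against 38.8 CPM), which serve squamous as well as glial progenitors, were higher in KYSE30. The cultures of batch2 are therefore named by their label only.

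The squamous keratins divided between the lines. *KRT5*, a basal keratin, had 0.0516, 0 and 0.135 normalized CPM in the KYSE30 libraries and 1539.8, 1486 and 1372 in the libraries labelled U138MG. Every library labelled U138MG was far above every KYSE30 library, by 22111-fold (95% counting interval 8635 to 81152). The KYSE30 libraries hold 4 *KRT5* counts in all, 3 of them in replicate 3, and the log2 difference moved from -14.31 to -15.45 without that library. *KRT14*, its usual partner, stayed under 1 CPM in all 6 libraries, with 0.464, 0.532 and 0.0899 against 0.365, 0.135 and 0.0931 CPM, and was not tested. *KRT15*, another basal keratin, had 44.4, 42.8 and 39.1 normalized CPM in the KYSE30 libraries and 5131, 4943 and 4474 in the libraries labelled U138MG, and all 3 libraries of U138MG exceeded all 3 of KYSE30 (log2 difference -6.85, standard error 0.08, edgeR adjusted p = 2.56e-29). *KRT17*, a keratin of injured and basal epithelium, was also higher in U138MG, at 3.11 ± 0.899 against 289 ± 68.4 CPM (log2 difference -6.52, standard error 0.33, edgeR adjusted p = 3.77e-05). *KRT16* followed, at 4.25 against 39.3 CPM. *KRT80*, found in differentiating epithelium, ran the other way, at 412 ± 7.07 against 6.42 ± 0.885 CPM (log2 difference 6.00, standard error 0.08, edgeR adjusted p = 7.03e-29). *KRT6A* had 5.34 against 0.487 CPM and was higher in KYSE30. *KRT4* and *KRT13*, the suprabasal pair of esophageal lining, had 22.0 against 29.7 and 154 against 85.3 CPM and were not called. In all, 12 of 15 squamous keratins were tested, of which 2 were higher in KYSE30 and 7 in U138MG, with a median of -3.90 beside 0.04 over all genes tested.

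Squamous transcription factors were present in both lines. *TP63*, the master regulator of stratified epithelium, had 93.6, 103 and 103 normalized CPM in the KYSE30 libraries and 270.0, 284 and 271 in the libraries labelled U138MG. It was higher in U138MG (log2 difference -1.46, standard error 0.05, edgeR adjusted p = 5.23e-19). *ZNF750*, which promotes epidermal differentiation, had 0.297 against 5.59 CPM and was higher in U138MG. *SOX2*, amplified in many squamous carcinomas, had 108, 98.0 and 98.5 normalized CPM in the KYSE30 libraries and 37.9, 37.7 and 40.8 in the libraries labelled U138MG, and it was higher in KYSE30 with no overlap between the lines (log2 difference 1.39, standard error 0.06, edgeR adjusted p = 2.1e-17). *KLF4*, which promotes keratinocyte differentiation, was higher in KYSE30 at 58.8 ± 2.17 against 11.7 ± 0.528 CPM (log2 difference 2.33, standard error 0.07, edgeR adjusted p = 2.47e-20). Of 15 factors, 3 were higher in KYSE30 and 4 in U138MG. *GRHL2*, *TFAP2A* and *PAX9* had 146 against 110.2, 53.3 against 65.6 and 12.8 against 16.5 CPM and were not called.

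Desmosomes, which join epithelial cells, and hemidesmosomes, which fix them to the basement membrane, each had members higher in either line. *DSC3*, a desmosomal cadherin of basal cells, had 23.1 ± 1.48 against 256 ± 3.08 CPM (log2 difference -3.47, standard error 0.06, edgeR adjusted p = 3.5e-26), *DSP*, the plakin desmoplakin, 147 against 639.8 CPM and *DSG3* 17.8 against 50.2 CPM, all higher in U138MG, while *PKP3*, the desmosomal plakophilin 3, had 236 against 72.1 CPM and was higher in KYSE30. *ITGB4*, the beta subunit of the hemidesmosomal integrin, had 1746, 1678 and 1551 normalized CPM in the KYSE30 libraries and 206, 234 and 193 in the libraries labelled U138MG, and the 3 KYSE30 libraries stood above the other 3 (log2 difference 2.97, standard error 0.07, edgeR adjusted p = 1.04e-20). *PLEC*, the plakin that links this integrin to keratin, was higher in KYSE30 too, at 1545 against 384 CPM. *COL17A1*, a transmembrane collagen of the same structure, had 559 against 91.2 CPM and shares exon sequence with another gene. *LAMB3*, a chain of the laminin to which hemidesmosomes attach, had 200.4 against 597 CPM and was higher in U138MG. Over the 18 tested members, 5 were higher in KYSE30 and 6 in U138MG.

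Members of the cornified envelope, the protein shell of terminally differentiated squamous cells, also went both ways. *IVL*, encoding involucrin, was higher in KYSE30, at 32.4 ± 1.38 against 1.95 ± 0.0668 CPM (log2 difference 4.05, standard error 0.12, edgeR adjusted p = 2.02e-21), and *SPRR3* had 11.3, 11.8 and 10.1 CPM in KYSE30 and no count in U138MG, at least 231-fold higher in KYSE30. *CSTA*, encoding the protease inhibitor cystatin A, had 0.0516, 0.160 and 0 normalized CPM in the KYSE30 libraries and 206, 217 and 212 in the libraries labelled U138MG, higher in U138MG by 3201-fold (95% counting interval 1249.7 to 11748). Of 12 tested members, 6 were higher in KYSE30 and 4 in U138MG.

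Genes that mark epithelium in general were present in both lines, and more of those called were higher in KYSE30. *CDH1*, encoding E-cadherin, had 515, 542 and 513 normalized CPM in the KYSE30 libraries and 463, 464 and 458 in the libraries labelled U138MG, and *EPCAM* had 283, 279 and 293 against 241, 244 and 256 CPM. Although these libraries did not overlap, neither difference reached the fold threshold. *KRT19*, a simple epithelial keratin, had 3016, 2913 and 2598 normalized CPM in the KYSE30 libraries and 34.3, 32.8 and 31.1 in the libraries labelled U138MG. It was higher in every KYSE30 library (log2 difference 6.44, standard error 0.08, edgeR adjusted p = 3.8e-29). *KRT8* and *KRT18*, the keratin pair of simple epithelium, had 4707 against 1838 and 2484 against 677 CPM and were higher in KYSE30, while *KRT7* was higher in U138MG at 71.3 against 633 CPM. The tight junction genes *CLDN1* (328 against 29.8 CPM) and *CLDN4* (653 against 224 CPM) were higher in KYSE30, and *EHF* (16.5 against 136 CPM), an epithelial ETS factor, was higher in U138MG. Altogether 10 of 27 were higher in KYSE30 and 4 in U138MG, with a median of 0.60.

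**Figure D1:**
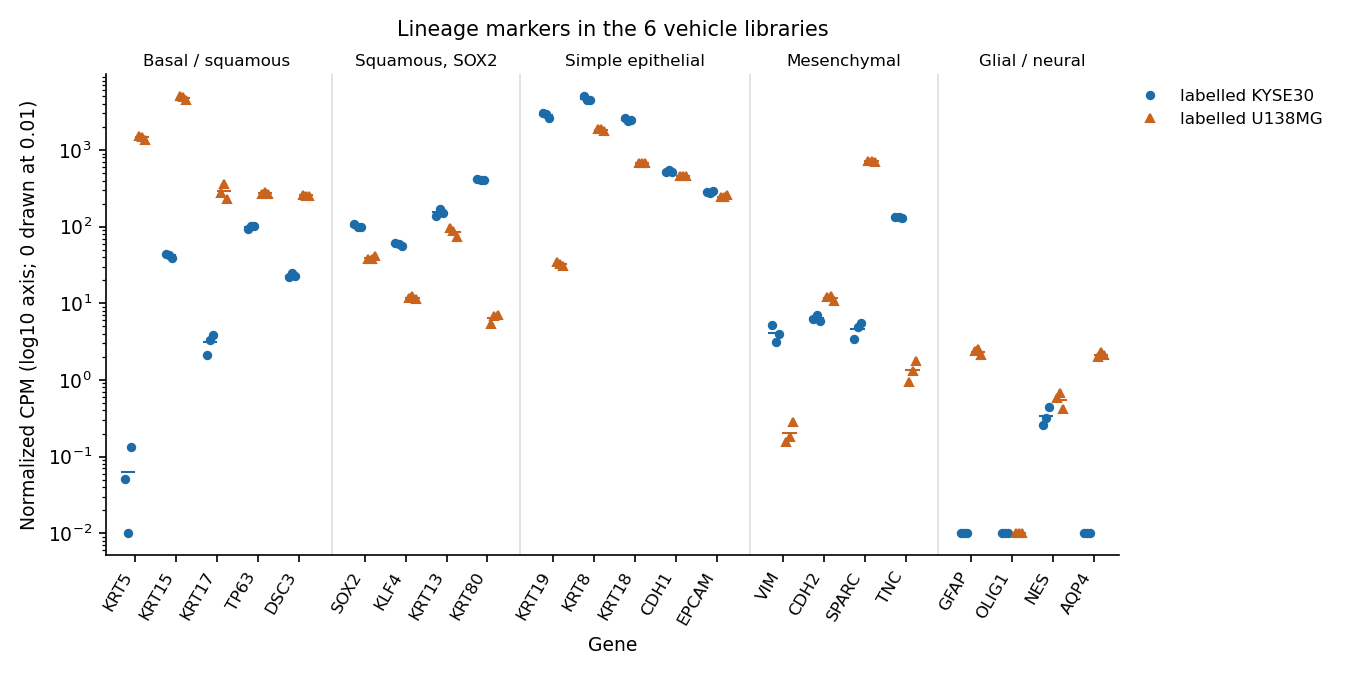
Levels of lineage markers in the 6 vehicle libraries, as normalized CPM on a log axis, with a value of 0 drawn at 0.01. Points are libraries and short lines are means of 3. The U138MG points of *KRT5* and *KRT15* lie above the KYSE30 points, those of *KRT19* lie below, and *OLIG1* is at 0 in all 6.

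Matrix and mesenchymal genes were called in both directions, with 9 of 25 higher in KYSE30 and 7 in U138MG. *SPARC*, a collagen-binding matrix protein, had 3.46, 4.90 and 5.53 normalized CPM in the KYSE30 libraries and 712, 725 and 695 in the libraries labelled U138MG, and it was higher in U138MG (log2 difference -7.25, standard error 0.09, edgeR adjusted p = 2.18e-26), as were the fibrillar collagens *COL5A1* (1.72 against 78.7 CPM), *COL5A2* (3.70 against 145 CPM) and *COL1A1* (10.9 against 54.3 CPM). The basement membrane collagens *COL4A1* (40.8 against 2.98 CPM) and *COL4A2* (97.9 against 11.8 CPM), the matrix glycoprotein *TNC* (132 against 1.34 CPM) and the caveolar coat gene *CAV1* (688 against 75.9 CPM) were higher in KYSE30. *TWIST1*, a driver of epithelial to mesenchymal transition, had 12.1, 10.5 and 11.3 CPM in KYSE30 and no count in U138MG, at least 238-fold higher. *CDH2*, encoding N-cadherin, and *FN1*, encoding fibronectin, had 6.37 against 11.8 and 99.9 against 75.6 CPM and were not called.

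Markers of other tissues were read in the same way. *INA*, a neuronal intermediate filament, had 166, 149 and 155 CPM in KYSE30 and none in U138MG, at least 3283-fold higher, and *NCAM1* had 0.0150 against 13.3 CPM. Of 7 tested neuronal genes, 2 were higher in KYSE30 and 5 in U138MG. For intestinal and gastric genes the counts were 5 and 4 of 10, with *AGR2* (372 against 58.2 CPM) higher in KYSE30, *VIL1* (0.0150 against 8.78 CPM) higher in U138MG, *CDX2* at 0.832 CPM in KYSE30 and 0 in U138MG, and *HNF4A* at most 0.312 CPM on average. The breast and luminal list gave 1 and 5 of 7, with *GATA3* (116 against 15.5 CPM) higher in KYSE30 and *ESR1* (13.0 against 75.6 CPM) higher in U138MG. Of the prostate list 1 and 3 of 5 were higher in KYSE30 and in U138MG, of the hepatocyte list 1 and 3 of 4, of the neuroendocrine list 2 and 1 of 3, and of the pluripotent and germ list 1 and 2 of 3. The ovary list, led by *WFDC2* (0.0300 against 74.0 CPM), gave 3 of 4 higher in U138MG, the lung and thyroid list 3 of 3, the kidney list 2 of 2 and the endothelial list 1 of 2. Among haematopoietic genes 3 of 3 tested were higher in U138MG, including *CD74* (0.0300 against 44.4 CPM), the invariant chain of MHC class II, while *PTPRC* was not among the tested genes. Both tested melanocyte genes missed the threshold. In sum over the whole lists, the libraries labelled U138MG held between 6264 and 7162 CPM of squamous keratins and between 326 and 334 CPM of the glial list, and the KYSE30 libraries held between 655 and 678 and between 360 and 369 CPM.

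To see how far counting itself could differ between the tables, 185 genes that nearly every cell uses, such as subunits of the ribosome and the proteasome, were set beside the rest. Their median log2 difference was -0.39, with 16 higher in KYSE30 and 51 higher in U138MG. In the GENCODE annotation 106 of them share exon sequence with another gene, and these had a median of -0.53, whereas the 79 without such overlap had a median of 0.02. No gene of the 185 was more than 10-fold higher in KYSE30, 13 were more than 10-fold lower, and all 13 belonged to the 106 with overlap (12.3%). Among all tested protein-coding genes the shares were closer to each other. More than 10-fold lower in KYSE30 were 8.21% of those with overlap and 6.86% of those without, and more than 10-fold higher 3.25% and 5.11%. *RPS10*, a protein of the small ribosomal subunit whose exons lie within the readthrough gene *RPS10-NUDT3*, had 2.06, 1.86 and 2.25 normalized CPM in the KYSE30 libraries and 781, 769.7 and 724 in the libraries labelled U138MG. All KYSE30 libraries were near 0 and all libraries labelled U138MG high, although ribosomes are made in every growing cell. *SDHA*, a subunit of mitochondrial complex II, had 12.5 ± 0.725 against 233 ± 4.60 CPM with no exon overlap in this annotation. Of 932 pseudogenes tested, 820 were higher in KYSE30 and 42 higher in U138MG. Of the lineage genes called above, *KRT7*, *KRT8*, *KRT15*, *KRT18*, *VIM*, *GFAP*, *SPARC*, *COL4A2*, *COL17A1*, *LAMB3*, *TNC*, *TWIST1*, *NCAM1*, *VIL1* and *ESR1* share exon sequence with another gene. From here on this is stated for each named gene that was called, the main lists are also given over their members without it, and its part in any one difference was not tested. Among all genes without it, 2356 of 8650 were higher in KYSE30 and 1713 higher in U138MG, with a median of 0.16. For protein-coding genes without it, these were 1422 of 6763 and 1303, with a median of 0.08.

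**Figure D2:**
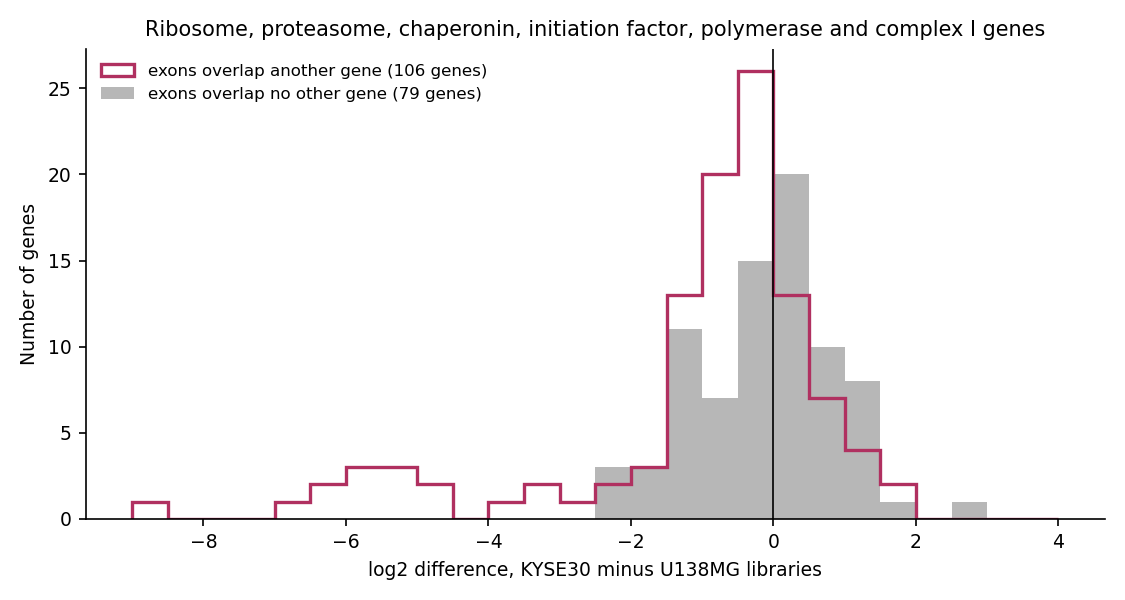
Histogram of the log2 difference (KYSE30 minus U138MG) of 185 genes that nearly every cell uses, with the 106 that share exon sequence with another gene drawn apart from the 79 that do not. The 13 genes more than 10-fold lower in KYSE30 are all among the 106.

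Next, 43 gene lists covering lineage, lipids, stress and growth were counted. They name 1019 genes, of which 930 are in both tables and 830 were tested. Another 88 are listed for U138MG only and could not be compared, 5 of them with more than 100 counts over its vehicle libraries. Of the tested genes, 163 were higher in KYSE30 and 240 higher in U138MG. Lists are described by these counts and by their median, beside 24.0% and 23.4% of all genes. Over the 13414 protein-coding genes tested, the shares were 19.4% higher in KYSE30 and 21.5% higher in U138MG. Among the lipid, stress and growth lists, those of NRF2 targets, cholesterol synthesis, and triglycerides and lipid droplets had more than 50% of tested members higher in U138MG. In the cell cycle list 46.7% were higher in KYSE30. Lineage lists, many with few tested members, reached such shares too. Higher in U138MG were 58.3% of squamous keratins and of glial markers, and higher in KYSE30 were 50% of the cornified envelope list.

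**Figure D3:**
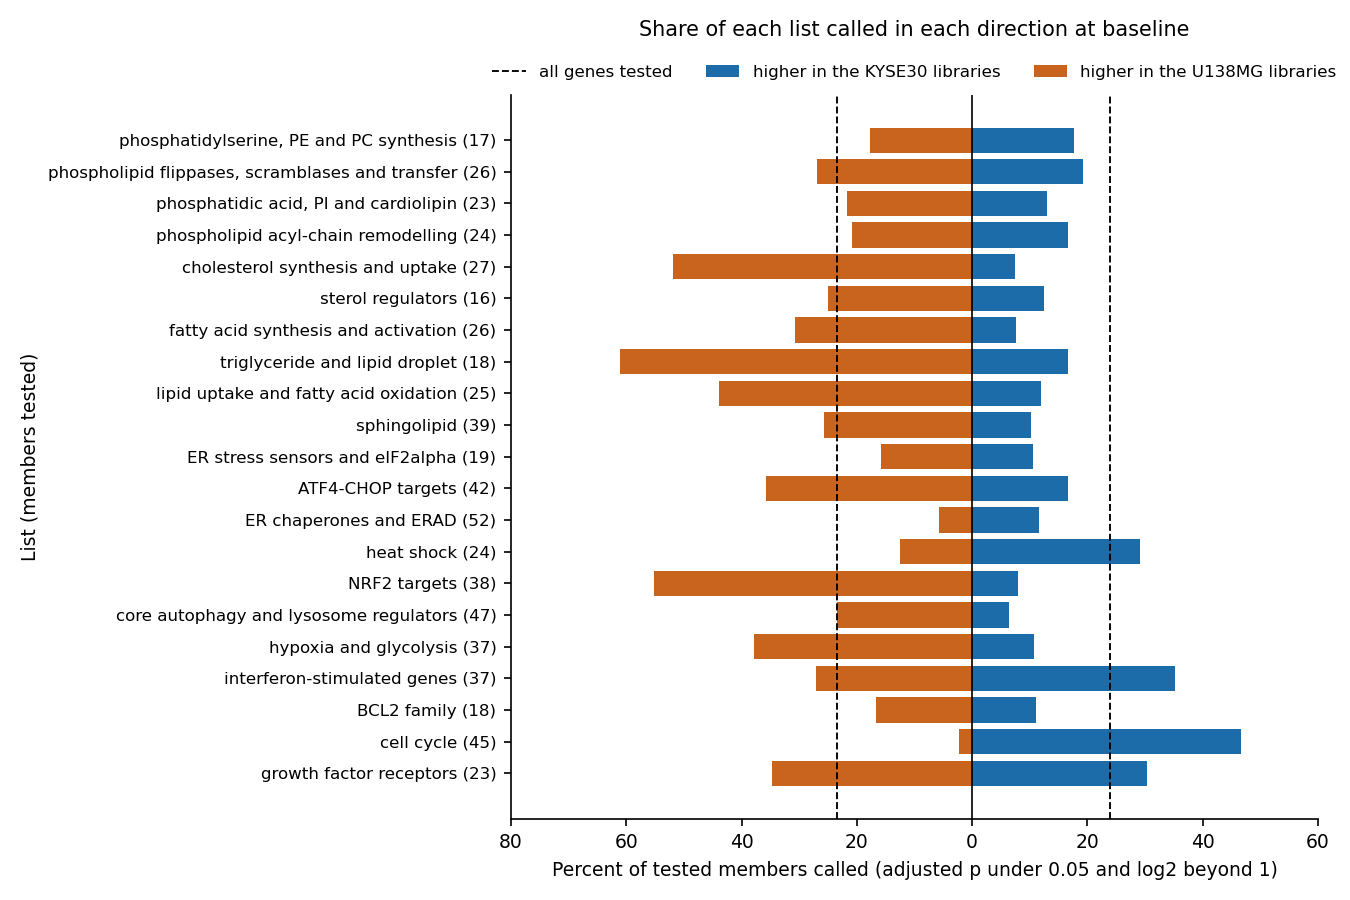
Percent of the tested members of lipid, stress and growth lists that were called higher in KYSE30 and higher in U138MG. Dashed lines mark the shares over all tested genes, 24.0% and 23.4%. The cell cycle list reaches furthest towards KYSE30 among the lists drawn, and the lipid droplet, NRF2 and cholesterol lists towards U138MG.

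To compare the machinery that makes phosphatidylserine, the level of each enzyme was read in every library. *PTDSS2* was higher in KYSE30, while the difference in *PTDSS1* stayed under the fold threshold. *PTDSS1* had 187, 159.9 and 174 normalized CPM in the KYSE30 libraries and 101, 95.0 and 96.2 in the libraries labelled U138MG, without overlap between the lines (log2 difference 0.84, standard error 0.06, edgeR adjusted p = 2.84e-13). *PTDSS2* had 52.0, 54.4 and 52.2 normalized CPM in the KYSE30 libraries and 10.9, 11.8 and 13.1 in the libraries labelled U138MG. Each KYSE30 library lay above each library labelled U138MG (log2 difference 2.14, standard error 0.08, edgeR adjusted p = 4.81e-19). Neither gene shares exon sequence with another gene in the annotation used. The count of *PTDSS1* over that of *PTDSS2* was 3.60, 2.94 and 3.34 in the KYSE30 libraries and 9.25, 8.05 and 7.32 in the libraries labelled U138MG. Per kilobase of exon the mean ratio was 3.20 ± 0.32 in KYSE30 and 7.97 ± 0.95 in U138MG (SD, n = 3). The count ratio was 2.49-fold higher in U138MG and did not overlap between the lines, and an exact two-sided permutation test over the 6 libraries gave p = 0.1, the smallest p that 3 against 3 allows. Leaving out any one library kept the log2 difference between -1.40 and -1.23.

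Downstream, *PISD*, which decarboxylates phosphatidylserine to phosphatidylethanolamine, had 67.0, 60.7 and 62.4 against 34.4, 35.5 and 33.9 CPM and was not called. *PCYT2*, the rate-limiting enzyme of the CDP-ethanolamine route, was higher in KYSE30, at 78.9 ± 7.60 against 29.3 ± 2.96 CPM (log2 difference 1.42, standard error 0.08, edgeR adjusted p = 4.28e-13), and *PEMT*, which methylates phosphatidylethanolamine to phosphatidylcholine, had 80.8, 70.0 and 75.1 normalized CPM in the KYSE30 libraries and 14.5, 13.8 and 14.1 in the libraries labelled U138MG. All KYSE30 values of *PEMT* exceeded those of U138MG (log2 difference 2.42, standard error 0.07, edgeR adjusted p = 6.77e-21). *PISD*, *PCYT2* and *PEMT* share exon sequence with other genes. *CHPT1*, the last step of phosphatidylcholine synthesis, was higher in U138MG, at 11.9 against 33.7 CPM with shared exon sequence, as was the choline and ethanolamine transporter gene *FLVCR1*, at 17.6 against 43.3 CPM. *PCYT1A*, the rate-limiting step of phosphatidylcholine synthesis, and the kinases *CHKA* and *ETNK1* had 125 against 99.8, 59.7 against 78.3 and 42.6 against 66.4 CPM and were not called. In total 17 genes of this list were tested, with 3 higher in each line and a median of 0.33. Its 7 members without shared exon sequence had a median of 0.50.

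Flippases and scramblases, which set on which side of the membrane phospholipids lie, differed by family member. *ATP8B2* had 0.0516, 0 and 0.0449 normalized CPM in the KYSE30 libraries and 37.4, 38.0 and 37.9 in the libraries labelled U138MG, higher in U138MG by 1141-fold (95% counting interval 316 to 9431). *ATP11A*, another flippase, was higher in KYSE30 (135 against 55.7 CPM, log2 difference 1.28, standard error 0.05, edgeR adjusted p = 1.1e-17). *TMEM30A*, the subunit that flippases share, had 150.3, 168 and 166 against 156, 154 and 160.3 CPM, with the lines overlapping. *PLSCR1*, a scramblase family gene induced by interferon, had 82.2 against 34.0 CPM and was higher in KYSE30, and *PLSCR4* (0.581 against 16.3 CPM) was higher in U138MG. The list held 26 tested genes, 5 higher in KYSE30 and 7 in U138MG. For phosphatidic acid, phosphatidylinositol and cardiolipin synthesis the counts were 3 and 5 of 23, with *GPAT3* (25.1 against 3.74 CPM) and *AGPAT2* (132 against 52.4 CPM), successive acyltransferases, higher in KYSE30 and *AGPAT4* (4.20 against 32.3 CPM) higher in U138MG. Among genes that exchange the acyl chains of phospholipids, 4 and 5 of 24 were called. *LPCAT1*, which reacylates lysophosphatidylcholine, had 76.0 against 209 CPM and was higher in U138MG, whereas *PLAAT3* (109 against 19.1 CPM), a phospholipase and acyltransferase, and *ABHD12* (143 against 35.5 CPM), a lysophosphatidylserine hydrolase, were higher in KYSE30.

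Many enzymes of cholesterol synthesis were higher in the libraries labelled U138MG. Of 27 genes, all tested, 14 were higher in U138MG and 2 in KYSE30, with a median of -1.07. Of the 11 without shared exon sequence 7 were higher in U138MG, and their median was -1.20. *SQLE*, encoding squalene epoxidase, had 106, 87.7 and 96.2 normalized CPM in the KYSE30 libraries and 324, 309 and 339 in the libraries labelled U138MG, with no overlap (log2 difference -1.75, standard error 0.06, edgeR adjusted p = 2.14e-18). *HSD17B7* (8.34 against 44.7 CPM), *EBP* (16.3 against 48.7 CPM), *SC5D* (33.4 against 120.1 CPM) and *MSMO1* (73.4 against 157 CPM), later steps of the pathway, were higher in U138MG as well. *HMGCS1*, which makes HMG-CoA, had 71.4 against 762 CPM and shares exon sequence. *LSS*, lanosterol synthase, was higher in KYSE30, at 314 against 123 CPM, also with shared exon sequence.

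The regulators of this pathway were split as well. *SREBF1*, encoding SREBP1, had 908, 909 and 889.6 normalized CPM in the KYSE30 libraries and 243, 234 and 243 in the libraries labelled U138MG and was higher in KYSE30 (log2 difference 1.91, standard error 0.05, edgeR adjusted p = 8.84e-22), and *SREBF2*, encoding SREBP2, had 255, 253 and 243 against 439, 441 and 444 CPM and was not called (log2 difference -0.82, standard error 0.05, edgeR adjusted p = 3.03e-14). Both share exon sequence with other genes. *PPARG*, a nuclear receptor of fat storage and of epithelial differentiation, was higher in KYSE30 at 75.4 ± 8.41 against 8.45 ± 1.06 CPM (log2 difference 3.16, standard error 0.10, edgeR adjusted p = 4.23e-17), and *PPARA* (14.5 against 44.5 CPM), the receptor that drives fatty acid oxidation, was higher in U138MG. *MYLIP* (30.4 against 97.6 CPM), a ubiquitin ligase that limits lipoprotein uptake, and *ABCG1* (6.71 against 23.9 CPM), a cholesterol exporter, were higher in U138MG. Of 16 regulators, 2 were higher in KYSE30 and 4 in U138MG, with a median of -0.37.

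**Figure D4:**
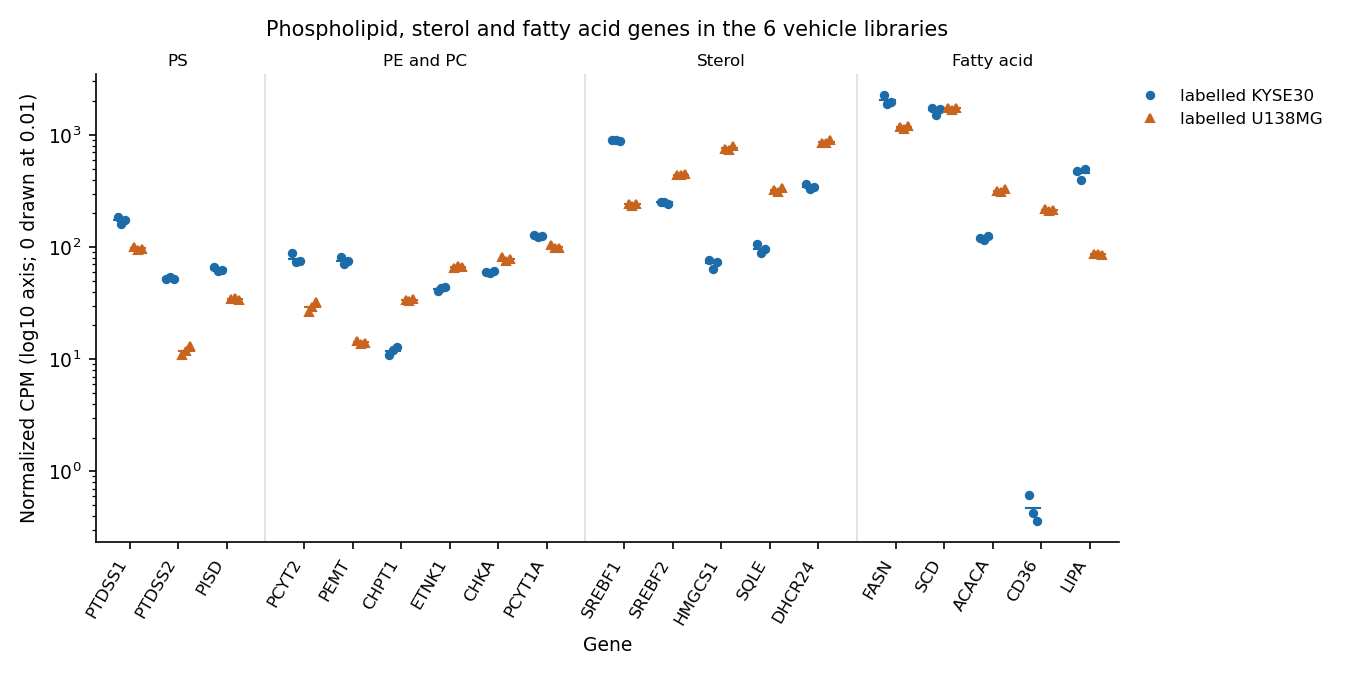
Levels of lipid genes in the 6 vehicle libraries, as normalized CPM on a log axis, with points for libraries and short lines for means of 3. *PTDSS2* and *PEMT* are higher in KYSE30, *CD36* and *SQLE* are higher in U138MG, and *SCD* overlaps between the lines.

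Of 26 fatty acid synthesis genes, 2 were higher in KYSE30 and 8 in U138MG, with a median of -0.15, and of the 15 without shared exon sequence 7 were higher in U138MG, with a median of -0.90. *FASN*, fatty acid synthase, had 2266, 1873 and 1961 normalized CPM in the KYSE30 libraries and 1172, 1119.5 and 1209.9 in the libraries labelled U138MG and was not called (log2 difference 0.80, standard error 0.06, edgeR adjusted p = 2.41e-11). *SCD*, the main desaturase, had 1744, 1514 and 1703 against 1746, 1670.1 and 1754 CPM, with overlap between the lines. *ACACA*, acetyl-CoA carboxylase, was higher in U138MG, at 119.6, 116 and 125 normalized CPM in the KYSE30 libraries and 315, 312 and 329 in the libraries labelled U138MG (log2 difference -1.41, standard error 0.05, edgeR adjusted p = 5.6e-19). *ACSL1* (61.8 against 277 CPM), which activates fatty acids, and *ELOVL6* (14.1 against 63.3 CPM), which lengthens palmitate, were higher in U138MG, and *FADS2* (45.4 against 20.1 CPM), a desaturase of polyunsaturated fatty acids that shares exon sequence, was higher in KYSE30.

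In the triglyceride and lipid droplet list 3 of 18 were higher in KYSE30 and 11 in U138MG, with a median of -1.25, but only 4 of the 18 are free of shared exon sequence, and of these 3 were higher in U138MG. Those 3 were *MGLL* (3.39 against 18.8 CPM), monoacylglycerol lipase, *FITM2* (14.7 against 57.9 CPM), which helps droplets form, and *SOAT1* (26.2 against 54.1 CPM), which esterifies cholesterol. *LIPA*, lysosomal acid lipase, had 476, 393 and 494 normalized CPM in the KYSE30 libraries and 87.5, 86.6 and 85.7 in the libraries labelled U138MG, higher in KYSE30 (log2 difference 2.39, standard error 0.07, edgeR adjusted p = 3.39e-15), with shared exon sequence. *PLIN2*, the droplet coat gene of most cells, was under 1 CPM in both lines (0, 0.0532 and 0 against 0.365, 0.135 and 0.140 CPM) and was not tested. For uptake and oxidation, 3 of 25 were higher in KYSE30 and 11 in U138MG, with a median of -0.81, also -0.81 over the 11 without shared exon sequence, of which 2 and 4 were called. *CD36*, a scavenger receptor that takes up fatty acids, had 0.619, 0.426 and 0.359 normalized CPM in the KYSE30 libraries and 220.4, 209.9 and 213 in the libraries labelled U138MG. The KYSE30 libraries were all near 0 and those of U138MG all high (log2 difference -8.84, standard error 0.11, edgeR adjusted p = 3.17e-29). *CPT1A*, which commits fatty acids to mitochondrial oxidation, was higher in U138MG, at 102 ± 4.18 against 284 ± 11.5 CPM (log2 difference -1.47, standard error 0.05, edgeR adjusted p = 3.52e-19). *SLC25A20*, the carnitine carrier of the inner mitochondrial membrane, had 7.17, 7.08 and 7.01 CPM in KYSE30 and no count in U138MG, at least 149-fold higher in KYSE30.

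Of 39 sphingolipid genes tested, 4 were higher in KYSE30 and 10 in U138MG, with a median of -0.36. *CERS4*, a ceramide synthase, had 5.41 ± 0.348 against 58.5 ± 1.66 CPM (log2 difference -3.43, standard error 0.09, edgeR adjusted p = 8.92e-23) and *B4GALT5*, lactosylceramide synthase, 102 ± 2.18 against 385 ± 11.6 CPM (log2 difference -1.91, standard error 0.05, edgeR adjusted p = 7.61e-22), both higher in U138MG. *SPTLC1* (209.6 against 98.2 CPM) and *SPTLC3* (17.8 against 3.13 CPM), subunits of the first enzyme of the pathway, were higher in KYSE30, where *SMPD1*, acid sphingomyelinase, had 9.03, 9.31 and 8.40 CPM against 0.469, 0.673 and 0.605 in U138MG (log2 difference 3.91, standard error 0.20, edgeR adjusted p = 1.09e-15).

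To read the stress programs at baseline, the NRF2 list was taken first because most of its members were called. NRF2, encoded by *NFE2L2*, binds the antioxidant response element and switches on genes of glutathione, NADPH and xenobiotic metabolism, and KEAP1 marks NRF2 for degradation. Of 38 tested genes, 21 were higher in U138MG and 3 in KYSE30, with a median of -1.15, and of the 21 without shared exon sequence 11 and 2 were called, with the same median. One of the 3 is *TRIM16L*, a name that the U138MG table also carries under another identifier, at 90.7 CPM outside the comparison. The core element, TGACNNNGC, was searched on both strands in the 250 bases before the gene start in RefSeq (GRCh38.p14), where 28 of the 39 listed genes have an entry. It occurs in 12 of 37 entries of the list (32.4%) and in 3830 of 35116 of all entries (10.9%). Of the 11 genes with a match, 8 were higher in U138MG, 1 was higher in KYSE30 and 2 were not called. The windows of 4 such genes, written along the strand of each gene with the match in capitals, are shown because these genes cover each of those outcomes and none of them shares exon sequence with another gene. The window of *ME1* lies at chr6:83431170-83431198, that of *GPX2* at chr14:64942849-64942877, that of *KEAP1* at chr19:10502784-10502812 with a further match beside it in the same promoter, and that of *GCLM* at chr1:93909446-93909474.
ME1: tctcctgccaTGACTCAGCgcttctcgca
GPX2: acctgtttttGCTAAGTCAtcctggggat
KEAP1: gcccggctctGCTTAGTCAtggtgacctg
GCLM: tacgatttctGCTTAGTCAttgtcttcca

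*AKR1C1*, an aldo-keto reductase, had 0, 0.106 and 0 normalized CPM in the KYSE30 libraries and 699, 634 and 756 in the libraries labelled U138MG. The 3 libraries of U138MG were above the 3 of KYSE30 by 21014-fold (95% counting interval 5817 to 173520.0). *AKR1C2*, its close paralog, had 0.155, 0.160 and 0.314 against 849.9, 771 and 969.9 CPM, and reads of this family may be split among its members. *GPX2*, a glutathione peroxidase of epithelial cells, had 3.66, 4.20 and 4.13 normalized CPM in the KYSE30 libraries and 311, 302 and 317 in the libraries labelled U138MG, with no overlap (log2 difference -6.27, standard error 0.07, edgeR adjusted p = 2.56e-29). *ME1*, malic enzyme, which makes NADPH, was higher in U138MG at 59.6 ± 2.23 against 132 ± 7.80 CPM (log2 difference -1.15, standard error 0.06, edgeR adjusted p = 3.78e-16), and so were *PGD* (254 against 595 CPM) and *TKT* (1081 against 2390.3 CPM) of the pentose phosphate route and *FTL* (1579.9 against 5706 CPM), the ferritin light chain. *NQO1*, a quinone reductase often read as the marker of this program, had 250.4, 234 and 259 normalized CPM in the KYSE30 libraries and 577, 557 and 619 in the libraries labelled U138MG, higher in U138MG (log2 difference -1.24, standard error 0.06, edgeR adjusted p = 4.26e-17), with shared exon sequence. *GCLM*, the modifier subunit of glutathione synthesis, had 72.2, 61.9 and 71.0 against 78.4, 78.6 and 87.0 CPM and was not called, and *TXNRD1*, thioredoxin reductase, had 349 against 482 CPM and was not called. *NFE2L2* itself had 104, 106 and 108 against 221, 206 and 219 CPM and was higher in U138MG (log2 difference -1.02, standard error 0.05, edgeR adjusted p = 4.45e-16), again with shared exon sequence. Without KYSE30 replicate 1 its log2 difference was -0.998 and just missed the fold threshold. *KEAP1* was higher in KYSE30, at 127, 119 and 111 normalized CPM in the KYSE30 libraries and 41.6, 41.6 and 37.5 in the libraries labelled U138MG (log2 difference 1.56, standard error 0.06, edgeR adjusted p = 3.42e-18), and *ABCC3*, an efflux pump, had 129.6 against 48.4 CPM in the same direction.

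Few sensors of ER stress were called. *EIF2AK3*, encoding PERK, and *ERN1*, encoding IRE1, had 33.5 against 26.4 and 22.5 against 12.8 CPM and were not called, nor was *XBP1*, the target of IRE1, at 45.3, 45.8 and 47.7 against 55.7, 49.8 and 57.8 CPM. *ATF6*, the third sensor, had 34.2, 33.7 and 34.1 normalized CPM in the KYSE30 libraries and 81.0, 80.7 and 81.4 in the libraries labelled U138MG and was higher in U138MG (log2 difference -1.25, standard error 0.06, edgeR adjusted p = 8.97e-17), whereas its relative *ATF6B* had 178 against 79.1 CPM and was higher in KYSE30, with shared exon sequence. Of 19 sensors and eIF2alpha regulators, 2 were higher in KYSE30 and 3 in U138MG, with a median of 0.02. *ATF4* had 204, 189 and 206 against 279, 287 and 300.2 CPM and *DDIT3*, encoding CHOP, 5.42, 5.11 and 5.12 against 6.88, 5.16 and 5.50 CPM, and neither was called.

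In the list of ATF4 and CHOP targets 7 of 42 were higher in KYSE30 and 15 in U138MG, with a median of -0.34. The median of the 24 without shared exon sequence was 0.11, with 4 and 5 called, so that the direction of the list differs between these readings. *NUPR1*, a small stress-induced chromatin protein, had 0.206, 0.426 and 0.180 normalized CPM in the KYSE30 libraries and 86.4, 93.7 and 88.8 in the libraries labelled U138MG, higher in U138MG (log2 difference -8.37, standard error 0.14, edgeR adjusted p = 1.5e-26). *DDIT4* (254 against 731 CPM), an inhibitor of mTORC1, and *ASNS* (1.83 against 29.2 CPM), asparagine synthetase, were higher in U138MG, both with shared exon sequence, and *SLC1A4* (9.15 against 40.1 CPM), an amino acid transporter, was higher without it. *GDF15*, a secreted stress factor, had 70.8, 71.0 and 65.2 normalized CPM in the KYSE30 libraries and 6.62, 6.42 and 8.01 in the libraries labelled U138MG, and the KYSE30 libraries were all higher (log2 difference 3.29, standard error 0.09, edgeR adjusted p = 2.33e-22). *PSPH* (155 against 22.5 CPM), the last enzyme of serine synthesis, and *TRIB3* (79.3 against 16.7 CPM), a pseudokinase that restrains ATF4, were higher in KYSE30 too.

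In the list of ER folding and ER-associated degradation 6 of 52 genes were higher in KYSE30 and 3 higher in U138MG, both shares under those of all genes, with a median of 0.06. The ER stress response element, CCAAT and CCACG parted by 9 bases, occurs within the same 250 bases in 8 of 55 promoter entries of this list (14.5%) and in 26 of 35116 of all (0.0740%), on either strand. The 7 genes that hold it are *HSPA5*, *HSP90B1*, *CALR*, *CANX*, *PDIA6*, *CRELD2* and *ERO1B*, of which the last was higher in U138MG and the others were not called. The windows of *HSPA5* (chr9:125241386-125241414) and *ERO1B* (chr1:236282178-236282206) are printed in the same way, the first for the best known ER chaperone and the second for the one called gene.
HSPA5: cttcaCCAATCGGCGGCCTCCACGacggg
ERO1B: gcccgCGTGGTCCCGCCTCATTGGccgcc

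*HSPA5*, encoding BiP, had 798, 707 and 753 normalized CPM in the KYSE30 libraries and 414, 382 and 429.6 in the libraries labelled U138MG. The lines did not overlap, and the difference was under the fold threshold (log2 difference 0.88, standard error 0.06, edgeR adjusted p = 1.41e-13). *HSP90B1*, *CALR* and *CANX*, further ER chaperones, had 668 against 754, 767 against 512 and 905 against 866 CPM. *ERO1B*, an oxidase of the ER, had 4.49 ± 0.716 against 28.1 ± 0.725 CPM (log2 difference -2.64, standard error 0.11, edgeR adjusted p = 7.63e-18). *SDF2L1* (19.1 against 7.81 CPM), a partner of BiP, and *SEC61G* (149 ± 9.47 against 39.8 ± 2.50 CPM, log2 difference 1.91, standard error 0.06, edgeR adjusted p = 2.85e-20), a subunit of the translocon, were higher in KYSE30, as was *P4HB*, encoding protein disulfide isomerase, at 856 against 273 CPM with shared exon sequence.

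Of 24 tested heat shock genes, most of which act in the cytosol, 7 were higher in KYSE30 and 3 higher in U138MG, with a median of 0.54. *HSPA1A*, the inducible HSP70, had 1285, 1108 and 1122 normalized CPM in the KYSE30 libraries and 149.5, 155 and 169 in the libraries labelled U138MG, and each KYSE30 library was above each of U138MG (log2 difference 2.89, standard error 0.07, edgeR adjusted p = 2.15e-22). Its near-identical neighbour *HSPA1B* had 584 against 483 CPM and was not called, and counting may divide reads between the pair. *HSPH1* (257 against 65.0 CPM), an HSP110, *BAG3* (193 against 54.6 CPM), an HSP70 cochaperone, and *STIP1* (523 against 219 CPM) were higher in KYSE30 without shared exon sequence. *HSPB8* (3.99 against 12.0 CPM), a small heat shock protein, was higher in U138MG, and *HSPB1*, encoding HSP27, had 337, 299 and 285 against 606, 580.1 and 591 CPM and was not called.

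**Figure D5:**
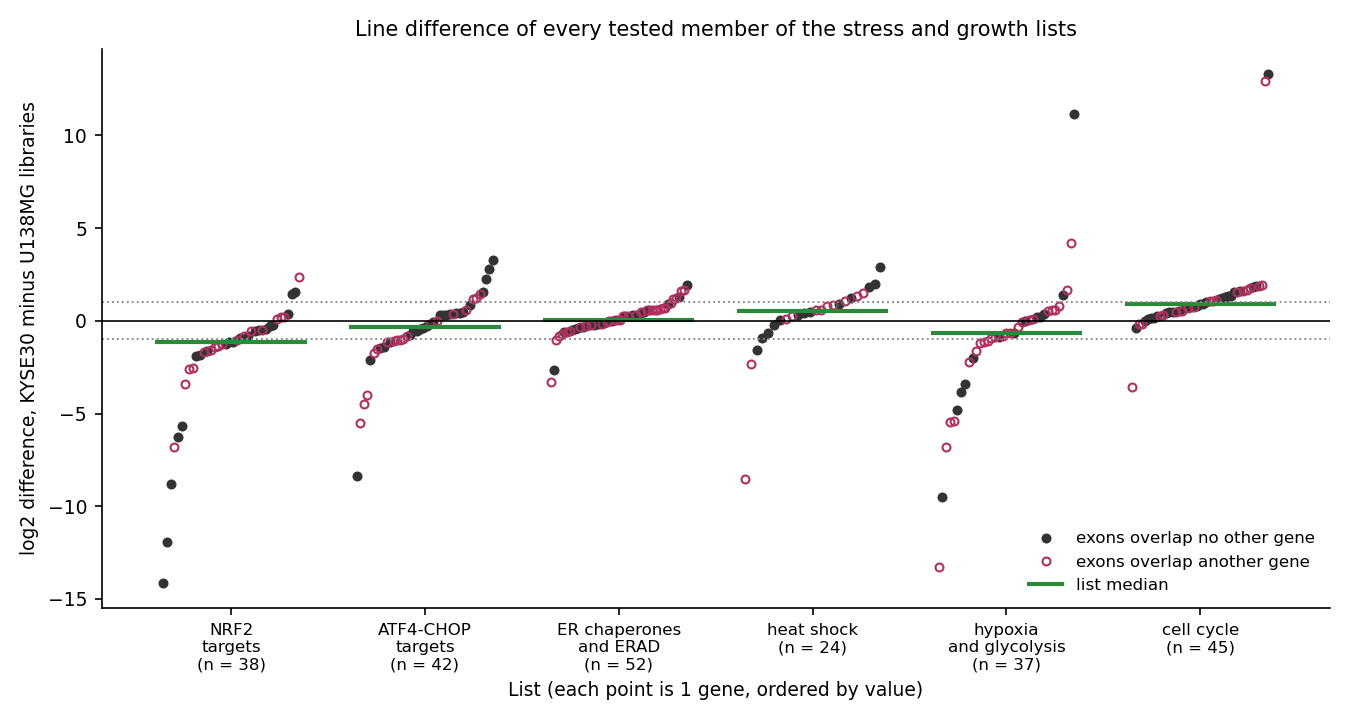
Log2 difference (KYSE30 minus U138MG) of every tested member of 6 stress and growth lists. Filled points have no exon overlap with another gene and open points do, the green line is the list median, and dotted lines mark the fold threshold at 1 either way. The NRF2 list lies mostly below 0 with a median of -1.15, the ER chaperone list is centred near 0 and the cell cycle list near 0.89.

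Autophagy and lysosome regulators gave 3 of 47 higher in KYSE30 and 11 in U138MG, with a median of -0.25, and 3 and 3 of the 21 without shared exon sequence, with a median of 0.08. *TFE3* (27.5 ± 1.78 against 60.3 ± 2.09 CPM, log2 difference -1.13, standard error 0.07, edgeR adjusted p = 1.59e-14) and *TFEB* (3.68 against 7.79 CPM), transcription factors for lysosome genes, were higher in U138MG, and *LAMP1* (314 against 142 CPM), a lysosomal membrane protein, was higher in KYSE30. *ATG5*, *ULK1* and *GABARAPL2* had 54.6 against 55.5, 99.7 against 91.9 and 64.3 against 60.7 CPM, with the lines overlapping.

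Genes of cell cycle arrest and apoptosis were read next. *CDKN1A*, encoding the cell cycle inhibitor p21, and *MDM2* had 74.9, 77.0 and 75.3 against 61.2, 64.2 and 60.2 and 86.3 against 80.9 CPM and were not called. *AEN* (31.3 ± 3.70 against 8.36 ± 2.12 CPM, log2 difference 1.90, standard error 0.15, edgeR adjusted p = 3.38e-07), a nuclease of apoptosis, was higher in KYSE30. Among BCL2 family genes 2 of 18 were higher in KYSE30 and 3 in U138MG. *BBC3*, encoding PUMA, had 32.4 against 15.7 CPM and *BMF* 12.3 against 64.8 CPM, in opposite directions, both with shared exon sequence. The BBC3 line difference of 1.04 on the log2 scale was under the fold threshold without KYSE30 replicate 2 (0.870), without U138MG replicate 2 (0.997), without TMM (0.995) and with upper-quartile scaling (0.946).

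Among hypoxia and glycolysis genes, 4 of 37 were higher in KYSE30 and 14 in U138MG, with a median of -0.68, and over the 13 without shared exon sequence 2 and 5, with a median of -0.66. *CA9*, a carbonic anhydrase driven by HIF1, had 52.6, 74.1 and 50.9 CPM in U138MG and no count in KYSE30, at least 1201-fold higher in U138MG, with shared exon sequence. *NDRG1*, another hypoxia gene, had 60.9, 64.0 and 43.3 normalized CPM in the KYSE30 libraries and 533, 726 and 525 in the libraries labelled U138MG, higher in U138MG (log2 difference -3.41, standard error 0.24, edgeR adjusted p = 0.000141), and *EGLN3* (9.98 against 143 CPM), a prolyl hydroxylase of the HIF feedback, was higher as well. Replicate 2 of U138MG had the highest level of the 3 U138MG libraries for 28 of the 37 genes and for 12 of the 14 called higher in U138MG, against 301 of all 830 listed genes tested, and without it 14 were again higher in U138MG. *LDHA*, which makes lactate, had 1073, 832 and 940.2 normalized CPM in the KYSE30 libraries and 349, 402 and 331 in the libraries labelled U138MG, and was higher in KYSE30 (log2 difference 1.40, standard error 0.11, edgeR adjusted p = 2.69e-06). *SLC16A3*, the lactate exporter MCT4, had 852 ± 80.0 against 46.7 ± 0.532 CPM (log2 difference 4.19, standard error 0.07, edgeR adjusted p = 3.27e-26), with shared exon sequence. *LDHB* and *ALDOA*, at 7.57 against 843 and 31.8 against 1394 CPM, share exon sequence with other genes, as *RPS10* does.

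Interferon-stimulated genes were spread widely, with 13 of 37 higher in KYSE30, 10 in U138MG and a median of 0.29. *ISG15*, a ubiquitin-like protein, had 57.3, 75.9 and 67.5 normalized CPM in the KYSE30 libraries and 6.25, 4.53 and 6.15 in the libraries labelled U138MG (log2 difference 3.57, standard error 0.13, edgeR adjusted p = 3.31e-11), *IFIT1* 53.3 against 6.12 CPM and *OAS2* 42.1 against 10.8 CPM, all higher in KYSE30, the first with shared exon sequence. *HERC5*, the ligase for ISG15, had 0.189 ± 0.160 against 19.6 ± 0.873 CPM (log2 difference -6.70, standard error 0.23, edgeR adjusted p = 6.86e-20) and *RIGI*, a sensor of viral RNA, 0.932 against 14.8 CPM, both higher in U138MG. The KYSE30 libraries disagreed among themselves here. *IFI6* had 21.9, 52.4 and 39.3 CPM in KYSE30 replicates 1, 2 and 3 and *BST2* had 4.90, 17.8 and 11.6, with replicate 1 lowest for both, and the summed level of the list ran from 1351 to 1902 CPM in KYSE30 against 1035 to 1069 CPM in U138MG.

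Of 45 cell cycle genes, 21 were higher in KYSE30 and 1 in U138MG. The median was 0.89, and it was 0.84 over the 26 without shared exon sequence, of which 11 were higher in KYSE30. *PCNA*, the sliding clamp of DNA replication, had 356, 326 and 351 normalized CPM in the KYSE30 libraries and 97.0, 89.6 and 98.8 in the libraries labelled U138MG, with the KYSE30 libraries all higher (log2 difference 1.86, standard error 0.06, edgeR adjusted p = 5.59e-21). The replicative helicase genes *MCM3* (355 against 147 CPM) and *MCM4* (531 against 239 CPM) and the mitotic genes *CCNB1* (242 against 96.6 CPM) and *CDC20* (301 against 104 CPM) were higher in KYSE30. *MKI67*, *TOP2A* and *CDK1* had 360.0 against 190.4, 443 against 419 and 118 against 86.3 CPM and were not called. Most of these differences were moderate, since a log2 threshold of 2 left 2 of the 21. These 2, *CDKN2A* and *CDKN2B*, encode inhibitors of CDK4 and CDK6 and had no count in the libraries labelled U138MG, beside 51.6, 46.7 and 42.5 and 65.6, 59.2 and 58.9 CPM in KYSE30, at least 980.2-fold and at least 1283-fold higher. *CDKN2A* shares exon sequence with a long noncoding RNA gene.

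Growth factor receptors were divided, with 7 of 23 higher in KYSE30 and 8 in U138MG. *EPHA2* (385 ± 25.7 against 45.4 ± 2.94 CPM, log2 difference 3.08, standard error 0.06, edgeR adjusted p = 1.31e-24), an ephrin receptor, and *EGFR* (1684 against 290.0 CPM), with shared exon sequence, were higher in KYSE30, where *ROR1* had 48.0 against 0.382 CPM. *FGFR2* (9.76 ± 1.40 against 79.2 ± 3.06 CPM, log2 difference -3.02, standard error 0.08, edgeR adjusted p = 7.37e-22), *NOTCH2* (64.9 against 259 CPM) and *NOTCH3* (119 against 382 CPM) were higher in U138MG. Of 22 reference genes often used to scale expression, 4 were higher in KYSE30 and 2 in U138MG, with a median of -0.01. *ACTB* had 3809 against 1357 CPM, whereas *GAPDH*, *PPIA* and *RPLP0* had 3954 against 4072, 1422 against 1474 and 2338 against 2447 CPM, with the lines overlapping.

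Among the most abundant genes that differed by more than 5 on the log2 scale, KYSE30 was marked by *KRT19*, *KRT80*, *MAGEA4* (418 against 0 CPM), a cancer-testis antigen, *EEF1A2* (278 against 2.27 CPM), a tissue-restricted elongation factor, *NLRP2* (263 against 0.0155 CPM), *MGST1* (204 against 0.0639 CPM), a microsomal glutathione transferase, *HLA-C* (398 against 0.515 CPM) and the mitochondrial pseudogene *MTND2P28* (670.0 against 4.61 CPM). *CAST* and *GTF2IP1* complete this list of 10, but the U138MG table carries the same names under other identifiers, at 208 and 209 CPM. *MAGEA4*, *NLRP2*, *HLA-C*, *CAST* and *GTF2IP1* share exon sequence with other genes. The libraries labelled U138MG were marked by *KRT15*, *KRT5*, *AKR1C2*, *AKR1C1* and *SPARC*, and by *ALDOA*, *LDHB*, *RPL26* (12.9 against 834 CPM) and *RPS10*, which share exon sequence with other genes.

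Finally, the same contrast was read in the 6 PTDSS1i libraries, which share no culture with the vehicle libraries but share the line, the batch and the table. There 4592 of 17241 genes (26.6%) were higher in KYSE30 and 4086 (23.7%) higher in U138MG. Of the 4179 genes higher in KYSE30 at baseline, 3199 were called the same way and 17 the opposite way, and of the 4067 higher in U138MG, 2981 and 33. For the squamous keratins 8 of 9 baseline calls recurred, for NRF2 targets 20 of 24, for cholesterol synthesis 8 of 16 with 1 opposite, and for the cell cycle list 10 of 22.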

How the data were processed

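Poly-A RNA of 12 cultures was sequenced, and the 6 vehicle libraries were the subject here. According to the submitters' processing notes, reads were handled with Trimmomatic, STAR and featureCounts on hg38. Versions of these tools, the annotation and the handling of strand are not given in the sources used here. The deposited values are raw counts per gene, without normalization, in 1 table per line, and replicates were not pooled. Samples were grouped by their labels, which describe 3 biological replicates per group. p-values measure the spread between these cultures of 1 line each.

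Genes were joined by Ensembl identifier without version. The KYSE30 table lists 30984 genes, none of them at 0 in all of its 6 libraries, and that of U138MG lists 78691 genes, of which 43615 are at 0. Counts were filtered with filterByExpr (minimum count 10, minimum total 15), scaled by TMM and fitted by edgeR 4.0.16 (robust quasi-likelihood F test, R 4.3.3, limma 3.58.1) on the 6 libraries, with Benjamini-Hochberg adjustment over 17404 genes. The standard error printed with a log2 difference is its absolute value divided by the square root of the F statistic, not a separately fitted error. DESeq2 1.42.0 was an alternative. Tables and figures used Python 3.11.15, pandas 2.3.3, numpy 2.4.6 and matplotlib 3.10.9. Exon overlap, exon length and gene positions came from GENCODE v29, which may not be the annotation of the deposited tables, and promoter sequences from RefSeq GRCh38.p14. Replicates of a line differed by more than sampling noise over genes with at least 20 counts (chi-square per degree of freedom 2.80 to 7.49), so each was kept. For a gene with at most 3 counts in every library of a line, the difference is given as a bound or a ratio with a 95% counting interval, or the levels alone are printed. Log2 differences of such genes are printed only to show how far they moved without a library. Counts of 16947 genes were simulated for the vehicle contrast, with 97 genes changed by a log2 of 2 and 103 changed by 3. Of these, edgeR recovered 97 and 103, with 2 false calls, and DESeq2 95 and 102, with 0. In the vehicle contrast itself 47.4% of 17404 genes were called. Recovery and the number of false calls with so large a share of changed genes was not tested.

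The comparison, the gene lists and the naming rule were chosen with earlier results of these data known, and the 185 ubiquitous genes after the values were seen. Genes were named if they anchor a list, if they were among up to 4 called members of a list per direction with the largest log2 difference, a mean of at least 5 CPM in the higher line and no overlap, or if they were among the 10 most abundant per direction with a log2 difference beyond 5. Some genes that the rule names are not reported here. Members described as not called, and called members that were added to illustrate a list without shared exon sequence, were chosen after their values were seen. Alternatives were other scalings and filters, no filter, other thresholds, DESeq2, a replicate block, each library left out, and genes without exon overlap.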

Additional observations from a re-analysis of the deposited data

Results flagged for a closer look

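For 4 listed genes the line difference was called in opposite directions in the vehicle and the PTDSS1i libraries, and the interaction of line and treatment, tested by edgeR across all genes, was past the threshold. *TM7SF2*, a sterol reductase, had 19.1 against 46.0 CPM (KYSE30 against U138MG) with DMSO and 103.9 against 47.2 with PTDSS1i, and its log2 line difference with DMSO minus that with PTDSS1i was -2.402 (adjusted p = 6.52e-19). *ACSS1*, mitochondrial acetyl-CoA synthetase, had 5.16 against 11.0 and 9.93 against 1.35 CPM, a difference of -3.97 (adjusted p = 3.92e-14). *BST2*, encoding tetherin, had 11.4 against 34.3 and 38.8 against 10.7 CPM, a difference of -3.444 (adjusted p = 0.000232). *TRIM22*, another interferon-stimulated gene, had 5.48 against 15.2 and 13.2 against 3.16 CPM, a difference of -3.523 (adjusted p = 1.96e-07). All 4 were taken from the listed genes with opposite calls, which were known before the interaction was tested. *TM7SF2* and *TRIM22* share exon sequence with other genes.

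Genes listed in 1 of the tables lie outside the comparison. The KYSE30 vehicle libraries held *LINC03061* at 46.09 CPM, *CTC-338M12.4* at 34.04 and *SLC16A4-AS1* at 16.86, and the vehicle libraries labelled U138MG held *EEF1G*, an elongation factor subunit that every cell uses, at 2761 CPM, *TALAM1* at 564.1 and *SOD2* at 260.9. GENCODE v29 also gives the name *SOD2* to an identifier that only the KYSE30 table lists, unnamed, at 63.0 CPM there. Whether the other genes were expressed in the line of the other table was not analysed here.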

How the results depend on the processing

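Line, batch and annotation coincide, so no fit separates them, and 3 against 3 cannot give an exact p under 0.1 for a single value. Genes under about 0.05 CPM in a line are at the counting floor. Of 268 named genes tested, 155 gave the same call under every alternative that held them (the fits without exon overlap leave out the genes that share exon sequence), 89 lost and 22 gained a call under at least 1, and 2 changed sign. The log2 threshold of 2 took a call from 86, and dropping the fold threshold gave a call to 22. The values of the main fit fix both of these in advance. No other alternative took a call from more than 10. The replicate numbers did not pair the cultures (correlations of same-numbered deviations 0.00617, 0.0574 and 0.0059), and with the replicate block 4178 and 4062 genes were higher in KYSE30 and U138MG, and the block changed no call of a named gene. Upper-quartile scaling moved the median of all genes from 0.042 to -0.055. Across the alternatives the share of calls that were higher in KYSE30 ran from 47.2 to 54.7%.

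The thresholds and the gene set moved the counts. With no fold threshold 7660 genes were higher in KYSE30 and 7220 in U138MG, with 750 listed genes called, 19 for lipid uptake and oxidation and 22 for hypoxia higher in U138MG, and 38 cell cycle genes higher in KYSE30. With a log2 threshold of 2 the counts were 2266 and 2417, 196 listed and 156 named genes, 9 NRF2 targets, 5 cholesterol, 6 lipid droplet, 7 uptake and oxidation and 5 ATF4-CHOP genes higher in U138MG, and 2 cell cycle genes higher in KYSE30. A fit on genes without exon overlap gave 2206 and 1829, 220 listed and 126 named genes, 12 NRF2, 7 cholesterol, 3 lipid droplet, 5 uptake and oxidation, 5 ATF4-CHOP and 5 hypoxia genes in U138MG, and 10 cell cycle genes in KYSE30. Restricting it to protein-coding genes, an alternative chosen after seeing the data, gave 1332 and 1366, 222 and 127, and the same list counts of 12, 7, 3, 5, 5, 5 and 10. In both of these fits fewer genes were tested by construction. glmTreat against a log2 of 1 gave 9 ATF4-CHOP genes.

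Leaving out each library in turn gave 4291 to 4452 genes higher in KYSE30 and 4136 to 4412 in U138MG, 4716 to 4876 and 4192 to 4283 in the PTDSS1i libraries, 404 to 415 listed and 239 to 242 named genes, and a *PTDSS1* to *PTDSS2* log2 difference of -1.395 to -1.227. For the lists in the order NRF2, cholesterol, lipid droplet, uptake, ATF4-CHOP, hypoxia and cell cycle the ranges were 21 to 21, 13 to 14, 11 to 11, 11 to 11, 13 to 15, 14 to 15 and 20 to 21. Differences that rest on few counts in the lower line moved by more than 1.5 times: without KYSE30 replicate 2 *AKR1C1* went from -14.12 to -16.83, *CSTA* from -11.52 to -12.77 and *HERC5* from -6.71 to -7.58, without KYSE30 replicate 3 *AKR1C1* went to -13.52, *CSTA* to -10.88, *CD74* from -10.14 to -12.80, *NCAM1* from -9.20 to -11.06, *VIL1* from -8.60 to -10.47 and *WFDC2* from -10.88 to -13.54, without U138MG replicate 3 *MGST1* went from 11.52 to 12.72 and *NLRP2* from 13.55 to 15.39, and without U138MG replicate 2 *MGST1* went to 10.93. The SCD line difference, not called, ran from -0.0940 to 0.0121, with the change of sign without KYSE30 replicate 2. The TMEM30A line difference, not called, changed sign to -0.00598 without TMM, -0.0538 with upper-quartile scaling, -0.0415 in the fit without overlapping genes and -0.0209 for the protein-coding part of those, and the cause was not tested.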

Other observations

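Further regions and families stood apart between the lines, and all of these genes were chosen after their values were seen. On chromosome 9, *CDKN2A* and *CDKN2B* had no count in the libraries labelled U138MG, and the same held for *DMRTA1* (2.76 CPM in KYSE30, at least 58.0-fold higher) and *TUSC1* (14.5 CPM in KYSE30, at least 304-fold higher). Their neighbours *MTAP*, *KLHL9* and *ELAVL2* were read in both lines, at 52.8 against 66.9, 37.1 against 52.8 and 8.78 against 9.64 CPM (KYSE30 against U138MG). On chromosome 19, a run of zinc finger genes had no count in U138MG, including *ZNF260* (28.4 CPM in KYSE30, at least 598-fold higher), *ZNF567* (10.8 CPM, at least 228-fold), *ZNF566* (10.1 CPM, at least 212-fold) and *ZNF420* (7.37 CPM, at least 155-fold), beside *ZNF146* at 106 against 229 CPM and *ZFP14* at 8.84 against 6.55 CPM. *CDKN2A*, *ZNF260*, *ZNF566*, *ZNF420* and *ZNF146* share exon sequence with another gene.

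Cancer-testis antigens, which are normally limited to germ cells, were found in both lines with different members. *MAGEA4* had 407, 381 and 465 CPM in KYSE30 and no count in U138MG, at least 8824-fold higher, with shared exon sequence. *MAGEA6* had 119.9 ± 7.14 against 1.99 ± 0.334 CPM (log2 difference 5.90, standard error 0.10, edgeR adjusted p = 1.31e-26) and *MAGEA3* 148 ± 7.66 against 64.0 ± 1.78 CPM (log2 difference 1.20, standard error 0.05, edgeR adjusted p = 5.31e-17), and reads of these near-identical copies may be divided among them. *MAGEA9B* had no count in KYSE30 and 41.7, 42.1 and 39.4 CPM in U138MG, at least 828-fold higher.

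Of the HLA class I genes, which present peptides to T cells, *HLA-C* had 381, 428 and 384 against 0.260, 0.539 and 0.745 CPM, with the libraries labelled U138MG near 0, while *HLA-B* had 115 against 21.8 CPM and *HLA-E* 180.0 against 266 CPM. Of class II, *HLA-DRA* had 0.0172 against 7.53 CPM and *HLA-DMA* 1.45 against 15.2 CPM. *HLA-B*, *HLA-C* and *HLA-DMA* share exon sequence with another gene. HLA genes resemble each other and vary between people, and the part of read assignment in these values was not tested.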
